A study of Mus musculus with 6 samples.

Results

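Small nucleolar RNAs (snoRNAs) are short nuclear RNAs that guide chemical changes of ribosomal RNA (rRNA). The snoRNAs described here are the 39 genes of the deposited table whose symbols begin with Snora or Snord and a digit, and that had a level above 0 in at least 1 of 6 RNAseq libraries. They were selected on those measured levels from 140 such rows, in a table of 54146 genes. Of the 39, 26 were box H/ACA snoRNAs (Snora, 41 rows) and 13 were box C/D snoRNAs (Snord, 99 rows). The remaining 15 box H/ACA and 86 box C/D rows were listed at 0 in every library. Because detection chose the members, how many were above 0 is a description throughout.

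The libraries came from D2A1, a mouse mammary tumor cell line, grown as spheroids in Matrigel in DMEM with 10% FBS. Recombinant SLURP1 (rSLURP1), a secreted Ly6/uPAR-related protein, was given at 50 nM to 3 samples, and recombinant GST (rGST), the control protein, at 50 nM to 3 others. The genotype field of the labels names the protein given (Control or Recombinant-Slurp1), and no genetic change is labelled. The spheroids were harvested on day 5 of culture, which the labels do not give. The comparison asks which genes differ between control and SLURP1 treatment in vitro. The labels do not say that replicates came from separate cultures, so the p-values measure the spread between these libraries, which may be technical. All libraries are of 1 cell line, cultured without stroma or immune cells. The epithelial keratin Krt18 was at 191 to 199 TPM in all 6 libraries. The keratin Krt8 was far lower, with means of 1.56 ± 0.14 TPM with rGST and 0.70 ± 0.16 TPM with rSLURP1 (SD, n = 3). The mesenchymal marker Vim was at 1184 to 1340 TPM with rGST and lower with rSLURP1, at 640 to 699 TPM. The part of these differences in Krt8 and Vim in the snoRNA values was not tested. The epithelial markers Epcam, Krt14 and Krt5 were listed at 0 and Cdh1 did not exceed 0.07 TPM. The T cell marker Cd3e was listed at 0, the leukocyte marker Ptprc did not exceed 0.01 TPM, and the endothelial markers Pecam1 and Cdh5 did not exceed 0.31 TPM. Cd68, a lysosomal protein used as a macrophage marker, was at 3.57 to 4.07 TPM with rGST and 7.75 to 10.6 TPM with rSLURP1, and its part in the snoRNA values was not tested.

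Box C/D snoRNAs pair with rRNA through short antisense elements and guide 2′-O-methylation by the enzyme fibrillarin. Box H/ACA snoRNAs fold into a pair of hairpins and guide the conversion of uridine to pseudouridine by dyskerin. A few members of both classes act in cleavage of the rRNA precursor instead of its modification. In mammals most snoRNAs are cut out of introns of other genes, the hosts, after splicing, by debranching of the intron and trimming of its ends. Mature snoRNAs carry no poly(A) tail, and the labels describe these libraries as made from polyA RNA with an mRNA kit. The study's methods name the Smart-seq2 protocol, and which of them was used could not be settled here. Selection of polyA RNA is not made to capture RNAs without a tail. How far the values stand for mature snoRNAs was not tested.

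The sequence marks of each class were present in the annotated transcripts. The sequences printed here are GENCODE M21 transcripts on the mouse build GRCm38 (mm10), written 5′ to 3′ as DNA letters. They are the members that passed the test for a treatment difference, others of high mean level in their class, the near-identical pair Snora73a and Snora73b, and a box C/D RNA of 64 bases that was listed at 0. In the box H/ACA sequences the capitals mark a hinge motif ANANNA near the centre, where one was found, and the ACA near the 3′ end:

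Snora28 (chr12:111540941-111541067, plus strand): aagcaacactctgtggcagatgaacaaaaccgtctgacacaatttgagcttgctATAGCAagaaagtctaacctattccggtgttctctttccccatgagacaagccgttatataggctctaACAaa
Snora31 (chr14:75847905-75848034, plus strand): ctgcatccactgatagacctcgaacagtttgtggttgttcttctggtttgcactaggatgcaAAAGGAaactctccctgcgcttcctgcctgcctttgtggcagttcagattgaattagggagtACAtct
Snora17 (chr2:26639190-26639321, minus strand): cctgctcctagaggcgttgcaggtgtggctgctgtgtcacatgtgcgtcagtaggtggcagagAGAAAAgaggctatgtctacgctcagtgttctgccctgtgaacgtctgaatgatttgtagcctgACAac
Snora64 (chr17:24720772-24720905, plus strand): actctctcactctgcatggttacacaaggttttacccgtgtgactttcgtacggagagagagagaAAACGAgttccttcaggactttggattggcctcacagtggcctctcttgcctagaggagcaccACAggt
Snora65 (chr2:32963291-32963420, plus strand): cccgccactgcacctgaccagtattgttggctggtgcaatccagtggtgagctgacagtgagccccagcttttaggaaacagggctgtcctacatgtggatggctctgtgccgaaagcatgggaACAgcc
Snora73a (chr4:132352775-132352979, minus strand): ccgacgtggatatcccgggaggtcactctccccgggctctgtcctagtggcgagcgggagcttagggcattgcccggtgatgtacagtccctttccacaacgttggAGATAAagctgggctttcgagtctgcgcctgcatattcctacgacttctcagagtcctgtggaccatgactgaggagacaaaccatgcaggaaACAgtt
Snora73b (chr4:132352322-132352526, minus strand): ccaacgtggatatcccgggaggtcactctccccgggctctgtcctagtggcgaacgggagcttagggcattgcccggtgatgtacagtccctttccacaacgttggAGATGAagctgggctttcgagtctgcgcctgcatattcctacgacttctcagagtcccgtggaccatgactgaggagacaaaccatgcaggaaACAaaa

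In the box C/D sequences the capitals mark box C (TGATGA), where it was found, and the last box D (CTGA):

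Snord118 (chr11:69073427-69073561, plus strand): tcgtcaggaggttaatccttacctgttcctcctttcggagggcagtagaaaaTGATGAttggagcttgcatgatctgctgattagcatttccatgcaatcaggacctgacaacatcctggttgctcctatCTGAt
Snord89 (chr1:39548745-39548854, minus strand): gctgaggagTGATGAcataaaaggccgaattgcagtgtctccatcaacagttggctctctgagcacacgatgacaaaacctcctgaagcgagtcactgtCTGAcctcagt
Snord22 (chr19:8725866-8725991, plus strand): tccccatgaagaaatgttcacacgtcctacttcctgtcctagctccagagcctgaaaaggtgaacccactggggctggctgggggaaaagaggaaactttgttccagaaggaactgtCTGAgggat
Snord87 (chr1:9942463-9942549, minus strand): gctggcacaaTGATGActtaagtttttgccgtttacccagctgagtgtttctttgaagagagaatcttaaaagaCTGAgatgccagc
Snord37 (chr10:81178950-81179013, plus strand): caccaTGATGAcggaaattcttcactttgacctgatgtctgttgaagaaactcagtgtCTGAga

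The boxes are marks of the annotated classes, so their presence in the members is a description and no test. The other short RNA genes set beside them were microRNAs, rRNAs, small nuclear RNAs, small Cajal body RNAs and miscellaneous RNAs. On the transcript strand, ACA lay in the last 8 bases of 26 of 26 box H/ACA members. Among 3289 other short RNA genes of 81 to 240 bases this was 12.7%. ANANNA lay in the middle of 23 of these 26, between 35% and 65% of the length, against 49.4% of the other short RNA genes. CTGA lay in the last 25 bases of 13 of 13 box C/D members and TGATGA in 9 of 13, against 7.27% and 2.40% of the other short RNA genes. The box C/D rows listed at 0 carried these boxes too, CTGA in 85 of 86 and TGATGA in 66 of 86. Of the 15 box H/ACA rows at 0, 13 carried the ACA and 15 the hinge motif. The hinge motif alone marks the class weakly, since 50 of the 86 box C/D rows at 0 also held it (58.1%).

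Levels are in TPM, a relative unit estimated by RSEM, which divides a gene's estimated reads by its effective length before scaling a library to a fixed total. TPM is thus already per length, and levels can be set side by side between genes. The effective length is the number of places where a fragment could start, so it shrinks towards 0 for an RNA as short as the fragments. A very short RNA with a single read can then have a high TPM, or an RNA can be listed at 0 although the cells contain it. TPM keeps no read depth, so no counting error could be given, and the spread between libraries is the measure of error here.

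Length separated the classes almost completely. Box H/ACA rows were 121 to 205 bases long, with a median of 132, and box C/D rows were 64 to 238 bases long, with a median of 84. No gene of 80 bases or fewer was above 0 in any library, among 1405 genes of the whole table, and 44 of these were box C/D snoRNAs. The shortest gene above 0 in the table was itself a snoRNA, Snord87, of 87 bases. Between 81 and 100 bases, 7 of 43 box C/D rows were above 0 (16.3%, against 1.61% of the other genes of that length). Between 101 and 120 bases this was 2 of 7 box C/D rows. The box C/D rows at 0 of 81 to 100 bases include Snord116l1 to Snord116l17, each of 94 bases within Snhg14. Most of these, such as Snord116l1, have their whole sequence in 30 other genes, so the division of reads among them is uncertain. The share at that length thus counts copies of the same RNA separately. At 121 to 150 bases, where both classes have rows, 22 of 36 box H/ACA rows (61.1%) and 3 of 4 box C/D rows (75.0%) were above 0, against 8.68% of other genes. At all lengths together, 63.4% of box H/ACA and 13.1% of box C/D rows were above 0. Box class and length can hardly be told apart in this difference, since only 5 box C/D rows are as long as the shortest box H/ACA row, and 4 of those 5 were above 0.

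**Figure D1:**
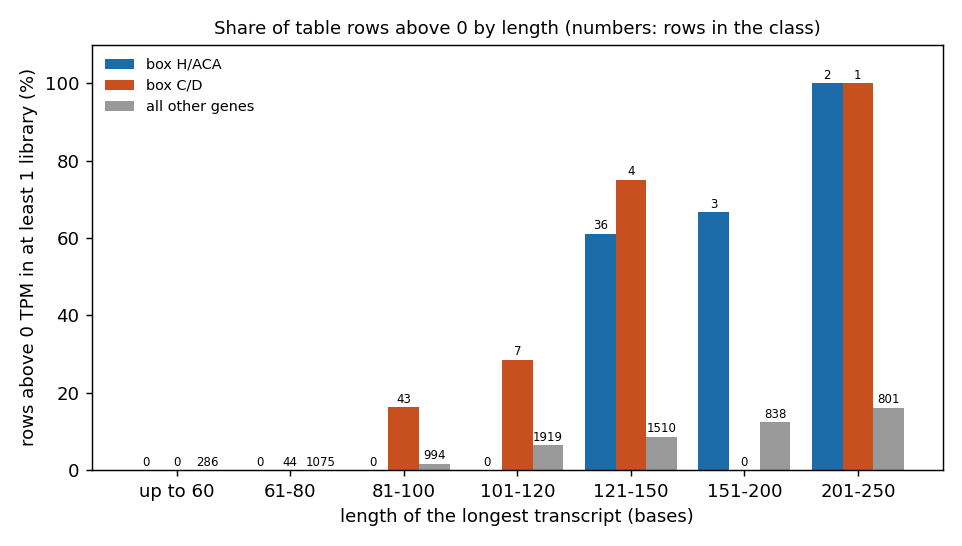
Share of table rows above 0 TPM in at least 1 of 6 libraries (y axis, percent) by length of the longest transcript (x axis, bases), for box H/ACA, box C/D and all other genes; the number over each bar is the number of rows. No bar rises above 0 up to 80 bases, and at 121 to 150 bases both snoRNA classes stood at 61.1% or more against 8.68% of other genes.

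The size of the values also varied with length. Genes of 81 to 90 bases had 8 values above 0, and 5 of them were of snoRNAs. The 10th percentile of all values above 0 at that length was 22.7 TPM, so that the low end there was already a high level. It was 12.7 TPM at 91 to 100 bases, 3.94 TPM at 121 to 130 bases, 0.29 TPM at 131 to 140 bases, 2.06 TPM at 141 to 150 bases, 0.43 TPM at 201 to 250 bases and 0.06 TPM above 1000 bases. At 81 to 90 bases the median of the 5 snoRNA values above 0 was 45.6 TPM. It was 28.7 TPM for 4 values at 91 to 100 bases and 14.9 TPM for 9 at 101 to 110 bases. At 121 to 130 bases it was 15.2 TPM for 25 values. It was 8.89 TPM for 28 values at 131 to 140 bases and 7.93 TPM for 7 at 141 to 150 bases. In longer snoRNAs it was 1.46 TPM for 4 values at 151 to 200 bases and 3.28 TPM for 13 at 201 to 250 bases. Both measures were lower in longer genes, though not in each step. Across the 39 members, Spearman's rho between length and highest TPM was -0.62. This is a description across genes that share libraries, and the genes are not independent replicates. Genes of 1 length took few distinct values within a library. Of the 458 genes of 107 bases, the most frequent length under 200 bases, 26 were above 0 in rSLURP1 replicate 2, and 10 of them had the same value, 8.05 TPM. In rSLURP1 replicate 1 the snoRNAs of 130 bases stood at 2.78 TPM (Snora30), 19.5 TPM (Snora31) and 50.2 TPM (Snora65). The value of Snora31 was 7.01 times and that of Snora65 was 18.1 times that of Snora30, close to whole multiples. The highest values of the shortest snoRNAs are therefore not read here as high abundance.

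**Figure D2:**
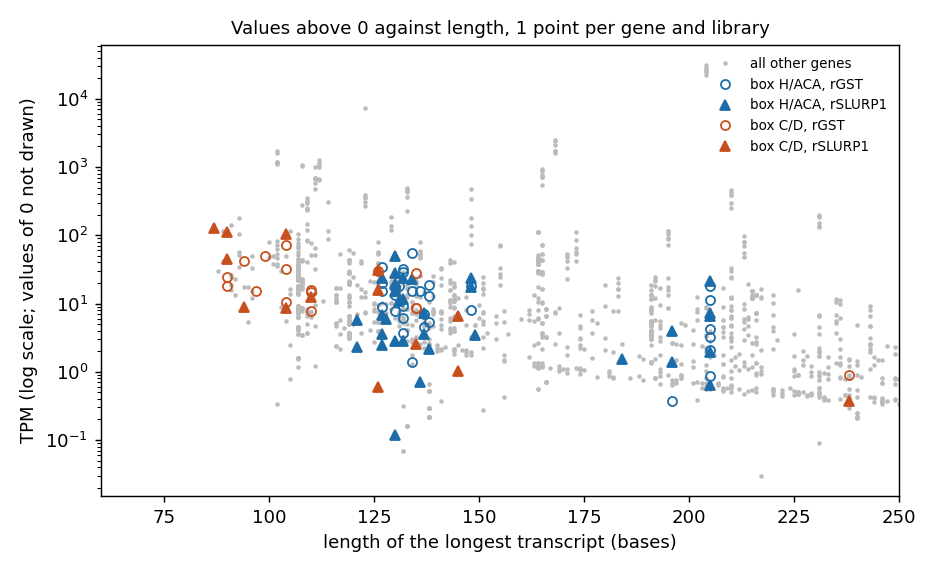
Each value above 0 (y axis, TPM on a log scale) against the length of the gene's longest transcript (x axis, bases), 1 point per gene and library, with open circles for rGST, filled triangles for rSLURP1 and grey dots for all other genes. Values of 0 are not drawn; the box C/D values of 81 to 90 bases lie between 18 and 129.3 TPM, and the values of Snora73a and Snora73b at 205 bases between 0.65 and 21.1 TPM.

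Most members were above 0 in few libraries. Of 234 member values, 139 were listed at 0, and those above 0 ran from 0.12 to 129.3 TPM with a median of 10.6 TPM. In all, 15 members were above 0 in 1 library, 9 in 2, 4 in 3, 6 in 4, 4 in 5 and 1 in all 6. Within box H/ACA 15 of 26 and within box C/D 9 of 13 were above 0 in 2 libraries or fewer. By treatment, 7 members were above 0 with rGST only, 11 with rSLURP1 only and 21 with both. The members nearest to the rule's limit of 0 were Snord17, with a highest value of 0.89 TPM, Snora23 with 1.52 TPM and Snora30 with 2.78 TPM, and just outside it are rows at 0. Since a very short RNA can be listed at 0 although the cells contain it, a value of 0 is called listed at 0 and is not read as absence.

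**Figure D3:**
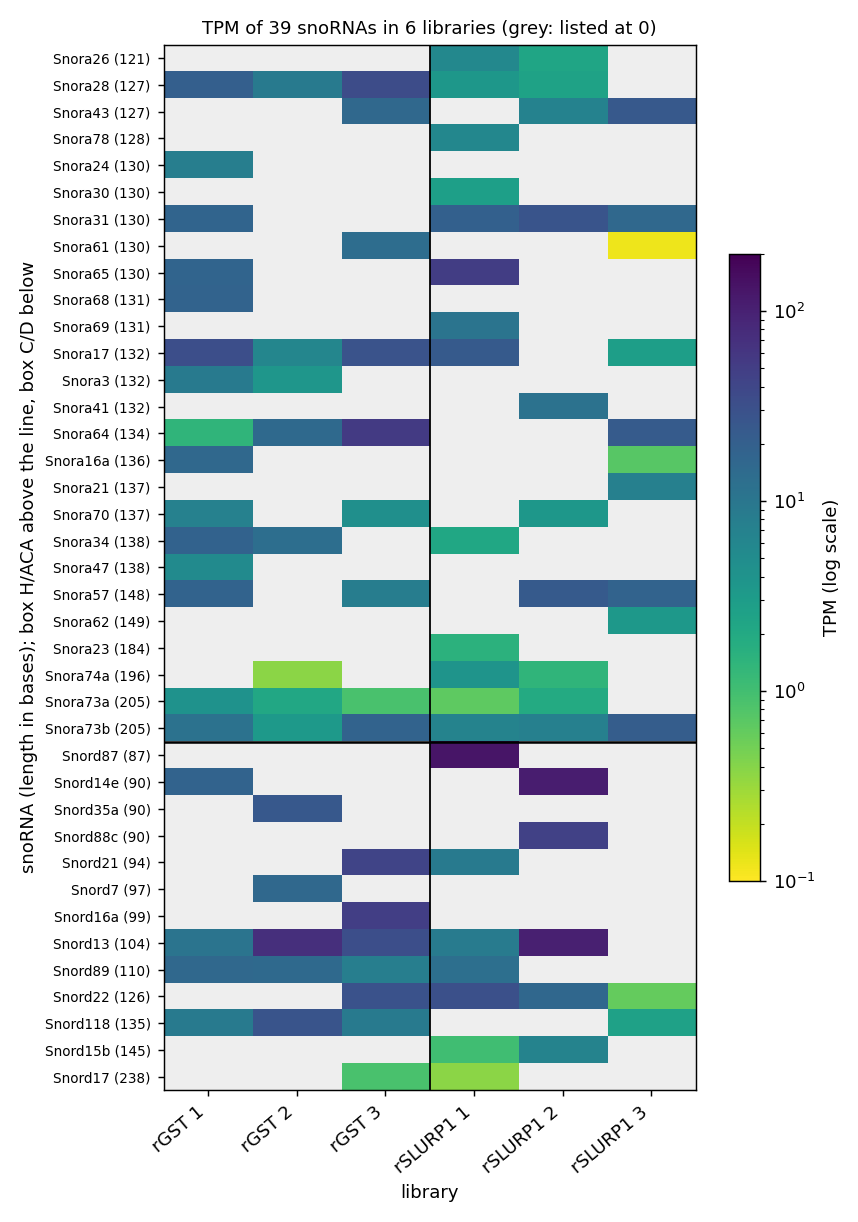
TPM (colour, log scale) of the 39 snoRNAs above 0 (rows, with length in bases; box H/ACA above the line and box C/D below, each ordered by length) in the 6 libraries (columns), with values of 0 in grey. Of 234 cells 139 are grey, and Snora73b is the single row without a grey cell.

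The 2 copies of the U17 snoRNA, which acts in cleavage of the precursor of small-subunit rRNA, were the steadiest members. Snora73b had 11.4, 3.28 and 18 TPM in rGST replicates 1, 2 and 3, and 6.61, 7.31 and 21.1 TPM in rSLURP1 replicates 1, 2 and 3. Snora73a had 4.2, 2.11 and 0.88 TPM with rGST, and 0.65 and 1.94 TPM with rSLURP1 replicates 1 and 2, and was listed at 0 in replicate 3. The libraries of the treatments overlapped for both. The log2 fold change of rSLURP1 against rGST on TPM + 1 was 0.16 ± 0.60 (SE) for Snora73b (limma, adjusted p = 0.827) and -0.88 ± 0.47 for Snora73a (limma, adjusted p = 0.132). The 2 sequences printed above differ at 7 of 205 positions (96.6% identity), and the longest stretch they share is 56 bases, so that the division of reads between them is uncertain. Their summed level does not depend on that division. It was 15.6, 5.39 and 18.9 TPM with rGST and 7.26, 9.25 and 21.1 TPM with rSLURP1, and the treatments overlapped there too.

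Among the other box H/ACA guides with the highest mean levels, Snora64 had 1.39, 15 and 55.0 TPM with rGST, and was listed at 0 in rSLURP1 replicates 1 and 2 and at 22.7 TPM in replicate 3. Snora17 had 32.0, 6.18 and 28.7 TPM with rGST and 23.4, 0 and 2.85 TPM with rSLURP1. Both varied as much within a treatment as between them. The log2 fold change was -2.17 for Snora64 (95% interval -5.62 to 1.29, limma, adjusted p = 0.227) and -2.07 for Snora17 (-4.67 to 0.52, adjusted p = 0.133), so that neither passed the test. Snora17 passed it without rSLURP1 replicate 1 (-3.29, limma, adjusted p = 0.0111) and Snora64 without rSLURP1 replicate 3 (-3.69, adjusted p = 0.0299). Snora34 had 18.5, 12.8 and 0 TPM with rGST and 2.15, 0 and 0 TPM with rSLURP1, with a log2 fold change of -2.14 (limma, adjusted p = 0.114), and passed without rGST replicate 3 (-3.48, adjusted p = 0.00129). Snora57 had 17.9, 0 and 7.93 TPM with rGST and 0, 23.4 and 17.7 TPM with rSLURP1. Snora43 had 0, 0 and 15.2 TPM with rGST and 0, 6.84 and 23.7 TPM with rSLURP1. For these 3 the treatments overlapped. Snora65 was at 17.2 TPM in rGST replicate 1 and at 50.2 TPM in rSLURP1 replicate 1 and at 0 elsewhere, Snora68 was above 0 in rGST replicate 1 only (17.9 TPM), and neither passed the filter described below.

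Among box C/D snoRNAs, Snord13 (U13, which takes part in acetylation of small-subunit rRNA) had the highest mean level. It was at 10.6, 71.0 and 32.0 TPM with rGST, at 8.51 and 104 TPM in rSLURP1 replicates 1 and 2, and at 0 in replicate 3. Its log2 fold change was -1.6 (95% interval -5.16 to 1.97, limma, adjusted p = 0.381). It was -3.29 without rSLURP1 replicate 2, which passed the test (limma, adjusted p = 0.0347), and 0.06 without rSLURP1 replicate 3. Snord22 (U22, which acts in processing of small-subunit rRNA) was at 0, 0 and 29.7 TPM with rGST and at 30.9, 15.6 and 0.60 TPM with rSLURP1 (log2 fold change 1.6, limma, adjusted p = 0.386). Both overlapped between treatments. The next highest means rested on single values of very short RNAs. Snord87 had 129.3 TPM in rSLURP1 replicate 1 and 0 in the other libraries, and Snord14e, of 90 bases, had 109.9 TPM in rSLURP1 replicate 2 and 18 TPM in rGST replicate 1. Snord16a (99 bases, 49.3 TPM in rGST replicate 3), Snord88c (90 bases, 45.6 TPM in rSLURP1 replicate 2) and Snord35a (90 bases, 24.7 TPM in rGST replicate 2) were each above 0 in 1 library, and Snord21 (94 bases) in 2, with 42.2 TPM in rGST replicate 3 and 8.90 TPM in rSLURP1 replicate 1. None of these 6 passed the filter described below. With a filter on mean TPM, which tested 12 of the 13 box C/D members, and with no filter, which tested 13, Snord118 was the 1 box C/D snoRNA called.

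A filter of 1 TPM in at least 3 libraries left 14 members for the test, 10 box H/ACA and 4 box C/D, and 25 did not pass it. Of the 14, 7 had all 3 rGST libraries at 1 TPM or more, 2 had all 3 rSLURP1 libraries, and 6 passed only by adding libraries of both treatments. Snora73b is among the 7 and the 2. A member that passed through 1 treatment alone is likelier to be high in it, so the numbers higher and lower below are no evidence of a direction. limma was fitted to 12301 genes with Benjamini-Hochberg adjustment over all of them. Of all tested genes 67.2% had an adjusted p of 0.05 or less, 8.66% higher and 58.5% lower with rSLURP1, and in 71.4% the libraries of the treatments did not overlap. Of the 14 snoRNAs 4 passed (28.6%), 1 higher and 3 lower, each with a fold change over 2, and in 2 the libraries did not overlap. The share called was thus below that of all genes.

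Snora28, a box H/ACA guide encoded in an intron of the translation factor gene Eif5, fell with rSLURP1. It had 19.9, 9 and 33.8 TPM in rGST replicates 1, 2 and 3, and 3.62, 2.47 and 0 TPM in rSLURP1 replicates 1, 2 and 3. Each rGST library lay above each rSLURP1 library. The log2 fold change was -2.94 ± 0.63 (SE, 95% interval -4.42 to -1.46, limma, adjusted p = 0.00434). The exact two-sided permutation test of the TPM values of Snora28 gave p = 0.1, the smallest that 3 against 3 libraries allow.

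Snord118 (U8), a box C/D snoRNA needed for maturation of the large-subunit rRNAs and transcribed from its own gene, also fell. It had 8.70, 28.1 and 8.68 TPM with rGST, was listed at 0 in rSLURP1 replicates 1 and 2, and had 2.58 TPM in replicate 3. These libraries did not overlap either. With rSLURP1 the level rested on 1 library above 0, and TPM does not show how many reads that value stands for. The log2 fold change was -3.19 ± 0.60 (SE, 95% interval -4.60 to -1.79, limma, adjusted p = 0.0023), with an exact two-sided permutation p of 0.1. Snord118 passed the filter through its 3 rGST libraries, with 1 rSLURP1 library at 1 TPM or more, and thus through the treatment where it is high. It passed the test with no filter as well (limma, adjusted p = 0.015), as did Snora28 (adjusted p = 0.0244). The size of each fold change depends on the pseudocount. With pseudocounts of 0.1 and 5 the log2 fold change was -5.44 and -1.68 for Snord118, -4.22 and -1.80 for Snora28, 5.19 and 1.62 for Snora31, and -4.61 and -1.19 for Snord89. Both calls held in each of the 17 alternative analyses that tested these genes, with adjusted p up to 0.0312 for Snora28 and 0.0166 for Snord118. Without rSLURP1 replicate 1, the library richest in short RNAs, the log2 fold changes were -3.38 for Snora28 (limma, adjusted p = 0.00436) and -2.88 for Snord118 (limma, adjusted p = 0.00898).

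Snora31, with a higher fitted level, and Snord89, with a lower one, passed the same test, but in both the libraries of the treatments overlapped. Both reached the filter through 1 treatment, Snora31 with 3 rSLURP1 libraries and 1 rGST library and Snord89 with 3 rGST libraries and 1 rSLURP1 library. Neither passed the test with no filter (limma, adjusted p = 0.113 and 0.149), and no direction is read from them. Snora31, a box H/ACA guide in an intron of Tpt1, had 17.1, 0 and 0 TPM with rGST and 19.5, 27.7 and 15.2 TPM with rSLURP1. Its log2 fold change was 3.01 (95% interval 0.59 to 5.44, limma, adjusted p = 0.0338). The rGST libraries thus differed from each other as widely as the treatments did. Leaving out rGST replicate 2 or 3, or any single rSLURP1 library, ended the call (limma, adjusted p 0.058 to 0.0992). So did fitting without the trend (adjusted p = 0.0568). Snord89, a box C/D snoRNA, had 15.5, 14.9 and 7.80 TPM with rGST and 12.5, 0 and 0 TPM with rSLURP1. The log2 fold change was -2.47 (95% interval -4.68 to -0.26, limma, adjusted p = 0.0493), close to the threshold. The call was kept in 3 of 17 alternatives, and leaving out any library other than rSLURP1 replicate 1 ended the call (adjusted p 0.063 to 0.15). The exact two-sided permutation p was 0.2 for both genes.

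**Figure D4:**
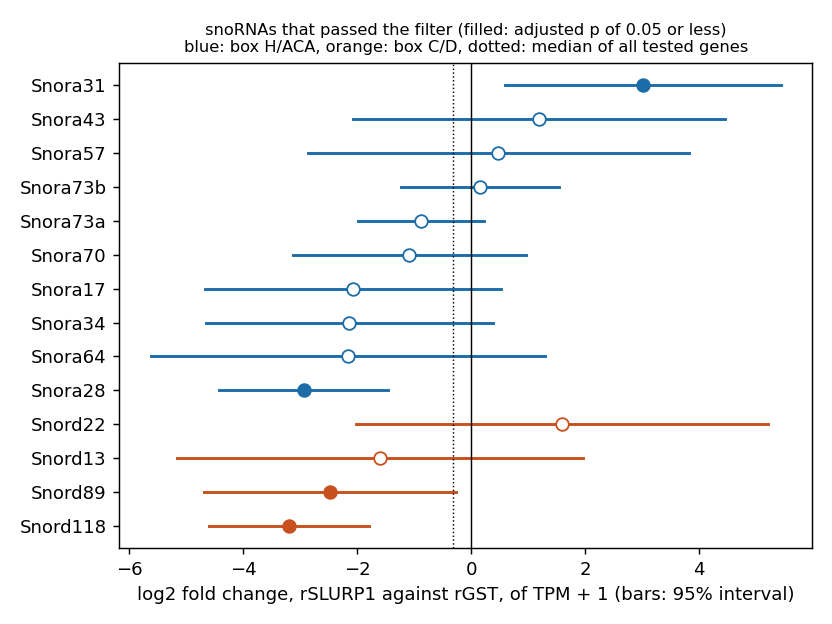
Log2 fold change of TPM + 1, rSLURP1 against rGST (x axis), with its 95% interval for the 14 snoRNAs that passed the filter (y axis), filled where limma's adjusted p was 0.05 or less. Snora28 (-2.94) and Snord118 (-3.19) have intervals far below 0, Snora31 (3.01) lies above 0, the interval of Snord89 ends at -0.26, and the other 10 intervals include 0.

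The snoRNA values were far less precise than those of other genes. The median SD between replicates on the log2 scale was 1.76 for the 14 tested members, against 0.1 for all tested genes and 0.990 for the 116 other tested genes under 200 bases. The median half-width of the 95% interval was 2.47 for the snoRNAs and 0.198 for all genes. A change of the median size over all tested genes, -0.33 on the log2 scale, lies inside the interval of each of the 10 members that did not pass, so these data do not show that those snoRNAs stayed the same. Of the other tested genes under 200 bases 27.6% were called, 28 higher and 4 lower, a share near that of the snoRNAs. The snoRNAs are read from bulk RNA, in which fewer cells containing an RNA and less of it per cell cannot be told apart.

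The class totals gave no separation of the treatments. The summed level of box H/ACA snoRNAs was 201.8, 52.5 and 177.2 TPM with rGST and 136.9, 88.5 and 114.8 TPM with rSLURP1, and the rSLURP1 libraries all lay within the range of the rGST libraries. The summed level of box C/D snoRNAs was 52.8, 153.9 and 170.5 TPM with rGST and 191.5, 281.4 and 3.18 TPM with rSLURP1. The rSLURP1 libraries held both the highest and the lowest box C/D sum. Snord87 alone made up 67.5% of it in rSLURP1 replicate 1, and Snord14e 39% in replicate 2. In box H/ACA no member exceeded 36.7% of the sum in any library. The number of members above 0 per library was 15, 8 and 9 box H/ACA with rGST and 13, 10 and 10 with rSLURP1, and 4, 5 and 7 box C/D with rGST and 7, 5 and 2 with rSLURP1. Both classes together reached 369.9 TPM at most.

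**Figure D5:**
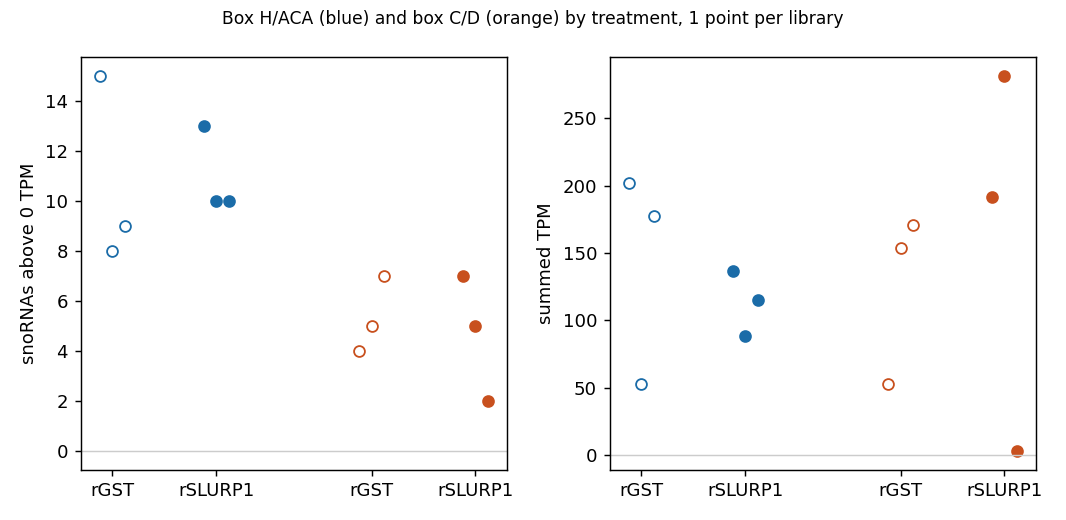
Number of snoRNAs above 0 TPM (left) and their summed TPM (right) for box H/ACA in blue and box C/D in orange, 1 point per library, open for rGST and filled for rSLURP1. In both panels and both classes the treatments overlap; the box C/D sums with rSLURP1 run from 3.18 to 281.4 TPM.

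rSLURP1 replicate 1 had the highest total of short RNAs. Its genes under 200 bases summed to 19770 TPM, against 8438 to 11130 TPM in the other 5 libraries, and it held the most members above 0 (20, against 12 to 19). The microRNA row Mir6236 alone was at 7440 TPM there, a large part of that sum. Genes under 200 bases above 0 numbered 188 there, against 144 to 169 in the other 5. Bc1, a brain cytoplasmic RNA, was the highest short gene in the other 5. The part of this library in the snoRNA values was not tested beyond leaving it out. Of the Snora and Snord rows 27.9% were above 0. The share was 25.5% for small Cajal body RNAs (13 of 51), 8.03% for small nuclear RNAs (111 of 1383), 5.63% for annotated snoRNA genes under other names (77 of 1368) and 3.27% for microRNAs (72 of 2202). Of the 19 snoRNA genes under other names that were tested, 6 were higher and 2 lower with rSLURP1. Among 8 rows of other structured RNAs without a poly(A) tail or with unusual processing, 1 was called, Rpph1, the RNA of ribonuclease P. It was higher with rSLURP1 (log2 fold change 1.34, limma, adjusted p = 0.0325), and the other 7 did not pass the test. Rpph1 was at 106 TPM in rSLURP1 replicate 1, 30.7 and 33.0 TPM in replicates 2 and 3, and 12.9 to 23.9 TPM with rGST.

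The hosts of the snoRNAs were measured far more precisely. Among the genes of the deposited table, a host on the same strand was found for 33 of the 39 members, and none for Snora17, Snora43, Snora57, Snora74a, Snord118 and Snord13. Snora74a lies within a transcript of AC121821.1, a gene of GENCODE M21 whose level was not analysed here. Of the 33, 11 lay in ribosomal protein genes, 6 in Snhg genes, which are snoRNA host genes with spliced RNAs of their own, and 16 in other genes. Where several genes span a snoRNA, the longest protein-coding gene was taken. Snord35a was given RP24-235B15.9, counted among the other genes. Its neighbour Snord33, listed at 0 and given the same host, also lies in a transcript of the ribosomal protein gene Rpl13a. Of 30 hosts tested, 16 were higher and 7 lower with rSLURP1 (limma, adjusted p of 0.05 or less), beside 8.66% higher and 58.5% lower over all genes. With median-ratio scaling 20 were higher and 1 lower, beside 3274 higher and 3029 lower of 12301 genes. The 11 ribosomal protein hosts were higher in 11 of 11 cases under both scalings, with a median log2 fold change of 0.54 on deposited TPM and 0.90 after median-ratio scaling. For example, Rps2, the host of Snora64, rose from 995 ± 38.3 to 1662 ± 72.2 TPM (mean ± SD, n = 3, log2 fold change 0.74, limma, adjusted p = 1.08e-05). The snoRNAs in these hosts did not show a common course. Of their 66 values 46 were listed at 0, while host means with rGST ran from 866 to 5833 TPM. Of the 11, 5 were above 0 in more rGST than rSLURP1 libraries, 4 in fewer and 2 in as many.

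The 3 hosts of called snoRNAs differed in their course. Eif5, the host of Snora28, had a mean of 134 ± 4.68 TPM with rGST and 120 ± 5.32 TPM with rSLURP1 (SD, n = 3), a log2 fold change of -0.15 (limma, adjusted p = 0.0254), which became 0.21 after median-ratio scaling (adjusted p = 0.00353). Tpt1, the host of Snora31, rose under both scalings, from 3861 ± 143 to 5061 ± 109 TPM (log2 fold change 0.39, and 0.75 after median-ratio scaling). AC074336.1, the host of Snord89, was at 1.63 ± 0.26 and 1.22 ± 0.42 TPM and was not called (log2 fold change -0.26, limma, adjusted p = 0.252). The whole sequence of 17 of the 39 members, 12 box H/ACA and 5 box C/D, also lies within a transcript of another gene, for 14 of them one annotated as a retained intron. Snora28 lies in such a transcript of Eif5 and Snora64 in one of Rps2, so that reads of the host precursor and of the snoRNA cannot be told apart there. Of the 101 rows at 0, 55 also have their whole sequence in a transcript of another gene. For some of these, such as Snora19, that gene is another snoRNA and not a host. For Snord118, Snora31 and Snord89 no GENCODE M21 transcript of another gene holds the whole sequence. Snora31 and Snord89 still lie within their hosts, so reads of unspliced host RNA could count towards them. This was not tested.

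Most of the genes for proteins that bind, assemble and trim snoRNAs were lower with rSLURP1 on deposited TPM, as were most genes. All values here are RNA levels, and no protein was measured in these libraries. Of 27 genes in these lists 1 was higher, 20 were lower and 6 did not pass the test (limma, adjusted p of 0.05 or less). Over all tested genes 8.66% were higher and 58.5% lower. The lists had a median log2 fold change of -0.36 beside -0.33 for all tested genes. After median-ratio scaling, which moved the median of all genes to 0.01, 5 were higher and 7 lower, beside 3274 higher and 3029 lower of all 12301 genes. Of the box H/ACA core proteins, the pseudouridine synthase Dkc1 (log2 fold change -0.54), Nop10 (-0.52) and Gar1 (-0.43) fell and Nhp2 rose (0.17). After median-ratio scaling Dkc1 (-0.18) still passed the test as lower and Nhp2 (0.53) as higher, while Nop10 and Gar1 did not pass. Of the box C/D core proteins, Snu13 fell on deposited TPM (-0.27) and did not pass after scaling. The methyltransferase fibrillarin (Fbl) was at 141.4 ± 8.65 TPM with rGST and 141.0 ± 8.32 TPM with rSLURP1 (SD, n = 3, log2 fold change 0.00, limma, adjusted p = 0.957), and it, Nop56 and Nop58 passed as higher after median-ratio scaling (0.36, 0.26 and 0.25). Of 8 assembly factors 8 were lower, and 2 after median-ratio scaling. The largest falls were those of Znhit6 (-1.19, or -0.83 after scaling), which acts in early box C/D assembly, and Rpap3 (-0.91, or -0.56 after scaling), a subunit of the R2TP assembly complex. Of 9 trimming and decay genes 7 were lower, and after scaling 4 were lower and 1 higher, the lower ones including Exosc10 (-0.95, or -0.59), a nuclease of the nuclear exosome, and Parn (-0.71, or -0.36), a deadenylase that trims 3′ ends. The debranching enzyme Dbr1 had 13.5 ± 1.01 and 12.4 ± 0.77 TPM and did not pass the test.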

How the data were processed

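RNAseq of D2A1 spheroids was analysed in 6 libraries, grouped by the labels. According to the submitters' processing notes, bcl2fastq 2.20, Cutadapt 1.18, STAR 2.5.2b (mm10) and RSEM 1.3.3 were used. The paper's methods name GENCODE M12 and the day of harvest. The authors deposited RSEM gene TPM, 1 column per library, without pooling. Coordinates, lengths and sequences were taken from GENCODE M21 (GRCm38), in which all 140 snoRNA identifiers matched with version.

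A pseudocount of 1 was added before taking log2, and the 12301 genes that reached 1 TPM in 3 or more libraries were tested with limma 3.58.1 (R 4.3.3; eBayes with trend, no block), with Benjamini-Hochberg adjustment and thresholds of 0.05 and a fold change of 2. Single snoRNAs had exact two-sided permutation tests. The scripts were tested on simulated data. A host is a gene of the table, other than a short RNA, spanning a snoRNA on the same strand.

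The members and lists were chosen with earlier results of these data known. Named snoRNAs were the 10 with the highest mean TPM per class, those past both thresholds, and Snora73a as the near-identical copy of Snora73b. Snora23, Snora30 and Snord17 mark the limit of the rule. Alternatives were 2 other pseudocounts, other filters, scalings, no trend, a replicate block and leaving out each library. Python 3.11.15 with pandas 2.3.3, scipy 1.17.1 and matplotlib 3.10.9 made tables and figures.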

Additional observations from a re-analysis of the deposited data

How the results depend on the processing

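Of 224 values of single snoRNAs under 18 alternatives, 187 had the same sign and the same call as in the main analysis. The number of called box C/D snoRNAs, 2 of 4, was 1 (Snord118) with a pseudocount of 5, with no filter, with a filter on mean TPM, under median-ratio or quantile scaling, with TPM rescaled without short genes or without mitochondrial genes, and in eBayes without trend. The number of called box H/ACA snoRNAs, 2 of 10, was 1 (Snora28) with no filter and in eBayes without trend. With the filter in all 6 libraries only Snora73b was tested and 0 box H/ACA and 0 box C/D snoRNAs were called, at an unadjusted p of 0.05 also 0. Leaving out each library in turn gave 1 to 2 calls in either class. These were not the same genes, since Snora70 (-1.99, limma, adjusted p = 0.036, named after its values were seen) passed without rGST replicate 2, Snora34 without rGST replicate 3, Snora17 without rSLURP1 replicate 1, Snora64 without rSLURP1 replicate 3 and Snord13 without rSLURP1 replicate 2. Without a library, 3 snoRNAs that were not called changed sign. The log2 fold change then ran from -0.757 to 1.95 for Snora57 (below 0 without rGST replicate 2, rSLURP1 replicate 2 or rSLURP1 replicate 3), from -0.457 to 0.618 for Snora73b (below 0 without rGST replicate 2 or rSLURP1 replicate 3) and from -3.29 to 0.0629 for Snord13 (above 0 without rSLURP1 replicate 3). The calls of Snora31 and Snord89 were lost in 7 and 14 of 17 alternatives. The log2 ratio of summed TPM, rSLURP1 to rGST, was -0.34 for box H/ACA and 0.34 for box C/D, and became 0.02 and 0.69 with median-ratio scaling, and 0.19 and 0.35 without members held in another gene's transcript, an alternative chosen after seeing the data. Without each library in turn it ran from -0.74 to -0.02 and from -0.37 to 0.91. The causes were not tested.

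The labels do not say that the replicate numbers pair the libraries. Same-numbered libraries had deviation correlations of -0.06, -0.03 and -0.06, and the other pairs ran from 0.0075 to 0.048. Deviations from means of 3 libraries cannot decide whether the numbers pair them. With the replicate block 5 box H/ACA snoRNAs were called (Snora17, Snora34 and Snora64 in addition) and 2 box C/D. With median-ratio scaling and the replicate block, chosen after seeing the data, these were 4 and 1. Over all genes the number called, 8265, lay between 5873 and 8269 under the alternatives, with 3274 of 6303 higher under median-ratio scaling and 3111 of 6016 under quantile normalization.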
